A study of Mus musculus with 32 samples.

Results

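The 35 genes described here encode the transporters and enzymes that bring glucose into a mouse cell and carry it through glycolysis, together with 3 regulators of that supply. They were listed by name from the pathway, with no threshold on a measured value, out of 21728 protein-coding genes of GENCODE M21 on the autosomes and X. Of these 35 genes, 29 carried an H3K27ac peak within 1 kb of a transcription start site (TSS) in both libraries made before induction. They were set beside 9689 other genes that met the same condition, called the comparison genes below. The 6 members without it were Slc2a6, Slc16a3, Hk3, Aldoc, Eno2 and Ldhb.

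B3 is a mouse pre-B cell line, which the study describes as having come from a lymphoma. In all groups it carried a retrovirally introduced, HA-tagged Ikaros fused to ERt2, a domain through which 4-hydroxytamoxifen (4-OHT) induces entry into the nucleus. HA peaks were also called in untreated cells, and what those peaks reflect was not tested. The cells were sorted for the GFP of the vector, the fusion came on top of whatever Ikaros the line itself makes, and all groups are 1 cell line. Cells were taken untreated (0 h) or after 30 min, 1 h or 2 h in 500 nM 4-OHT. HA-Ikaros, CHD4 and H3K27ac were each mapped by ChIP-seq in 2 replicates per time, which gives 8 peak lists per target. H3K27ac marked the promoters of 9 of 10 pre-B genes in both 0 h libraries, and of 0 of 5 T cell, 0 of 5 myeloid, 0 of 3 fibroblast and 0 of 2 hepatocyte genes. Klf1 was the exception among 3 erythroid genes. The lists held 5373 to 14874 peaks for HA-Ikaros, 2488 to 9593 for CHD4 and 21468 to 33664 for H3K27ac. Mean coverage was 1.98 to 3.59 fragments per base for HA-Ikaros and 3.74 to 4.34 for H3K27ac, and is unknown for CHD4. The HA-Ikaros 0 h libraries were the deepest of their target, at 3.59 and 3.12. A HA-Ikaros list at 2 h nevertheless held 14225 or 14179 peaks, against 7822 and 9527 at 0 h. The lists come from bulk chromatin, in which fewer bound cells and weaker binding per cell cannot be told apart.

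Glycolysis turns glucose into pyruvate through a fixed chain of enzymes, and its entry is set by glucose transporters and hexokinases. Ikaros (IKZF1) is a zinc-finger factor of lymphoid development that binds CHD4, the ATPase of the NuRD remodelling complex, and H3K27ac marks active promoters and enhancers. In B-lineage leukaemia, IKZF1 and PAX5 are known to hold back glucose uptake, with transporter genes, hexokinases, INSR, TXNIP and NR3C1 among the genes so described.

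For each gene and library, the highest-ranking peak within 10 kb of any TSS was taken. Its rank is the percentile of its fold over background within that library's list, so 100 is the strongest peak and a gene without a peak has 0. Sequences are shown for the 6 members with the highest mean HA-Ikaros rank at 2 h whose summit lay outside a UTR exon, so that the bound DNA can be read. Eno3, Eno1 and Pfkm ranked among the highest but were left out for that reason. Each run is centred on the strongest 2 h summit, plus strand, GRCm38 (mm10), and capitals mark GGAA or its reverse complement TTCC, the core shared by Ikaros and other factors.
Slc2a3, chr6:122810827-122810927, 9237 bp upstream of the nearest Slc2a3 TSS and intergenic: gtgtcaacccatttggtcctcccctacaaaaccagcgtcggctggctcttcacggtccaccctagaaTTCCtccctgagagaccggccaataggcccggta
Slc16a1, chr3:104638455-104638555, 163 bp upstream of its TSS: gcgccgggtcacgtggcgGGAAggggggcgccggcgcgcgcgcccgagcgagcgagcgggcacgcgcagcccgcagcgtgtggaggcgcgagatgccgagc
Pfkfb3, chr2:11552620-11552720, in an intron 1252 bp downstream of a TSS: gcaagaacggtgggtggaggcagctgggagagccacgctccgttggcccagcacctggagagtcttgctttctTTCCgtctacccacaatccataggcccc
Txnip, chr3:96564806-96564906, 4802 bp downstream of the nearest TSS and intergenic: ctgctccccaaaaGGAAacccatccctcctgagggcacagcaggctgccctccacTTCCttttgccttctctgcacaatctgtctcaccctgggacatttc
Tkt, chr14:30548870-30548970, in an intron 211 bp upstream of the nearest of its TSSs: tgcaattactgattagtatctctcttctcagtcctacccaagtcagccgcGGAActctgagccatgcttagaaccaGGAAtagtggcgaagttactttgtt
Gpi1, chr7:34234719-34234819, 4433 bp upstream of its TSS: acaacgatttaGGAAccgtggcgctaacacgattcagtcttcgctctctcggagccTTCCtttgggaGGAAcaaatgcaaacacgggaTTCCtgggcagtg

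HA-Ikaros held 3 regions in both 0 h libraries and in neither at 2 h, near Slc2a1, Pkm and Eno2. The run of the Slc2a1 region is shown, chosen after its values were seen because Slc2a1 was the only member lost as a gene, and the other two were not searched.
Slc2a1, chr4:119118835-119118935, in an intron 9971 bp downstream of the nearest TSS: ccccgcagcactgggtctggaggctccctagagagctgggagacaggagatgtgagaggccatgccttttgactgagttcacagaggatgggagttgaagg

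The Slc2a1 run held neither GGAA nor TTCC, while all 6 runs bound at 2 h held 1 to 4 of these words. The study also counts GGGA and TCCC as IKZF1 motifs. Those were not marked or counted here, and the Slc2a1 run holds both. Over the 23 members called in both 2 h libraries outside chromosome 18, 20 windows (87.0%) held GGAA or TTCC. The share was 76.5% and 80.1% of all summit windows in the 2 h libraries, and 67.2% and 65.8% of windows 400 bp away. The longer word GGGAA or TTCCC, which contains the core, stood in 11 of the 23 (47.8%), against 35.7% and 38.3% of all summit windows and 26.8% and 26.9% of the shifted ones. A word is a description of the window, not a site of binding.

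The first question was how many of the genes had HA-Ikaros nearby, and whether that number moved with induction. HA-Ikaros peaks lay near 18 and 20 members at 0 h, 19 and 12 at 30 min, 23 and 25 at 1 h, and 25 and 27 at 2 h. The lowest count belonged to 30 min replicate 2, whose list was the shortest. Both 0 h libraries called 17 members, 16 of them among the 29 with promoter H3K27ac (55.2%), against 37.1% of the comparison genes. Both 2 h libraries called 24, with 22 of the 29 (75.9%), against 59.1%. The comparison genes match the 29 in the presence of promoter H3K27ac, not in its strength. Within 1 kb at 0 h, called members had median H3K27ac ranks of 84.4 and 84.7, against 74.8 and 71.4 of the comparison genes. The part of that in these shares was not tested. HA-Ikaros was never called near 5 members, Hk3, Aldoc, Tpi1, Ldhb and Pgd. Of these, Tpi1 and Pgd are among the 29 (6.90%), against 12.8% of the comparison genes.

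**Figure D1:**
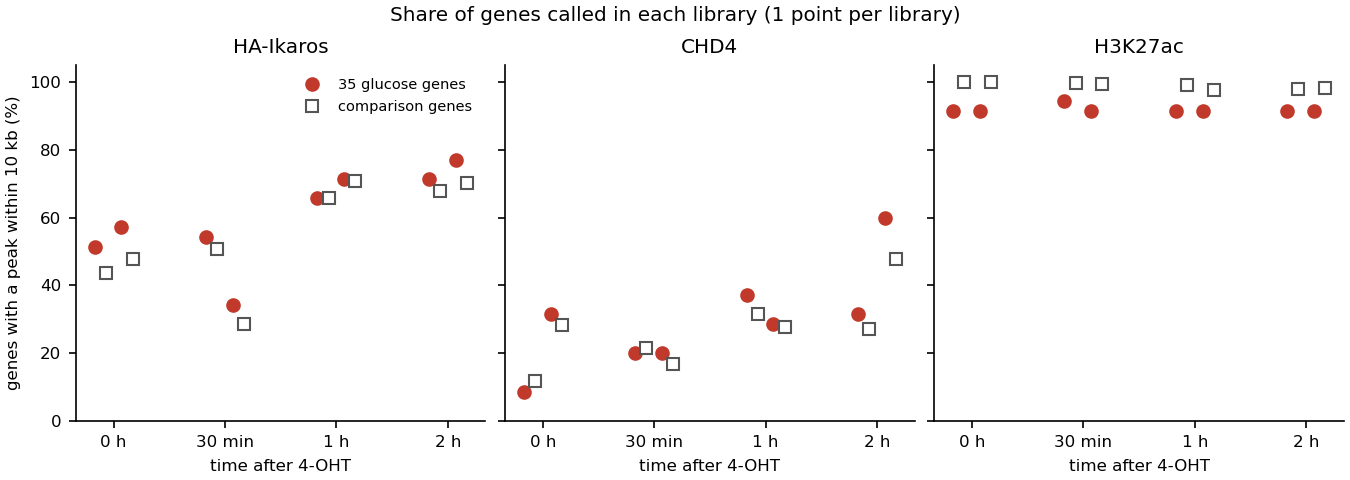
Share of the 35 glucose genes, 6 of which lack promoter H3K27ac at 0 h (filled circles), and of the 9689 comparison genes (open squares) with a peak within 10 kb of a TSS, in percent on the y axis, by time after 4-OHT on the x axis, with 1 point per library and 1 panel per target. For HA-Ikaros, 51.4% and 57.1% of members had a peak at 0 h and 71.4% and 77.1% at 2 h, against 43.8% and 47.9%, then 68.0% and 70.3%, of the comparison genes.

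A gene counted as gained when both 2 h libraries called it and no 0 h library did. These were 5 members for HA-Ikaros, Slc2a6, Aldoa, Tkt, Taldo1 and Nr3c1, all but Slc2a6 among the 29 (4 genes, 13.8%), beside 13.5% of the comparison genes. Slc2a1 alone was lost, with a call in each 0 h library and none at 2 h (1 of 29, 3.45%), beside 0.784%. Both shares rest on few genes, and the gained share stood near that of the comparison genes. With every list cut to the length of the shortest, the gained members were Slc16a1 and Tkt, and the lost ones Slc2a1 and Hk1. Tkt and Nr3c1 were no longer gained with a window of 20 kb, Aldoa with 1 kb, and Taldo1 at a −log10 q of at least 3. From 1 replicate alone, 9 (replicate 1) or 8 (replicate 2) members were gained and 2 (Slc2a1 and Pfkfb1) or 1 (Slc2a1) lost.

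Ranks at 2 h and 0 h were compared with limma across all 9088 genes that had an HA-Ikaros peak in at least 2 of the 8 libraries, 28 members among them. No gene passed an adjusted p of 0.05 (0%). That count depended on the setting, with 416 genes without the variance trend (2 of them members), 84 with ranks among genes and 40 on the log2 fold. In the fit as reported, 18.5% of genes were higher at 2 h and 3.03% lower at an unadjusted p under 0.05. The 7 members higher at that level were Slc2a6, Slc16a1, Gpi1, Pfkfb3, Eno3, Tkt and Nr3c1, and the 1 lower was Slc2a1. The median difference was 18.74 points over the 28 members and 19.57 over all genes tested. After all lists were cut to the same length it was 9.81 and 5.44, and on ranks taken among genes 0.06 and 8.94, so the order of members and all genes differed with the scale. Of the genes at an unadjusted p under 0.05, 86.0% were higher as the lists stand, 52.0% with lists of equal size and 44.0% on the log2 fold of genes called in all 8 libraries. No member passed the adjusted threshold in the fit as reported. Nothing says that replicates came from separate cultures, so p-values measure only the spread between these libraries.

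**Figure D2:**
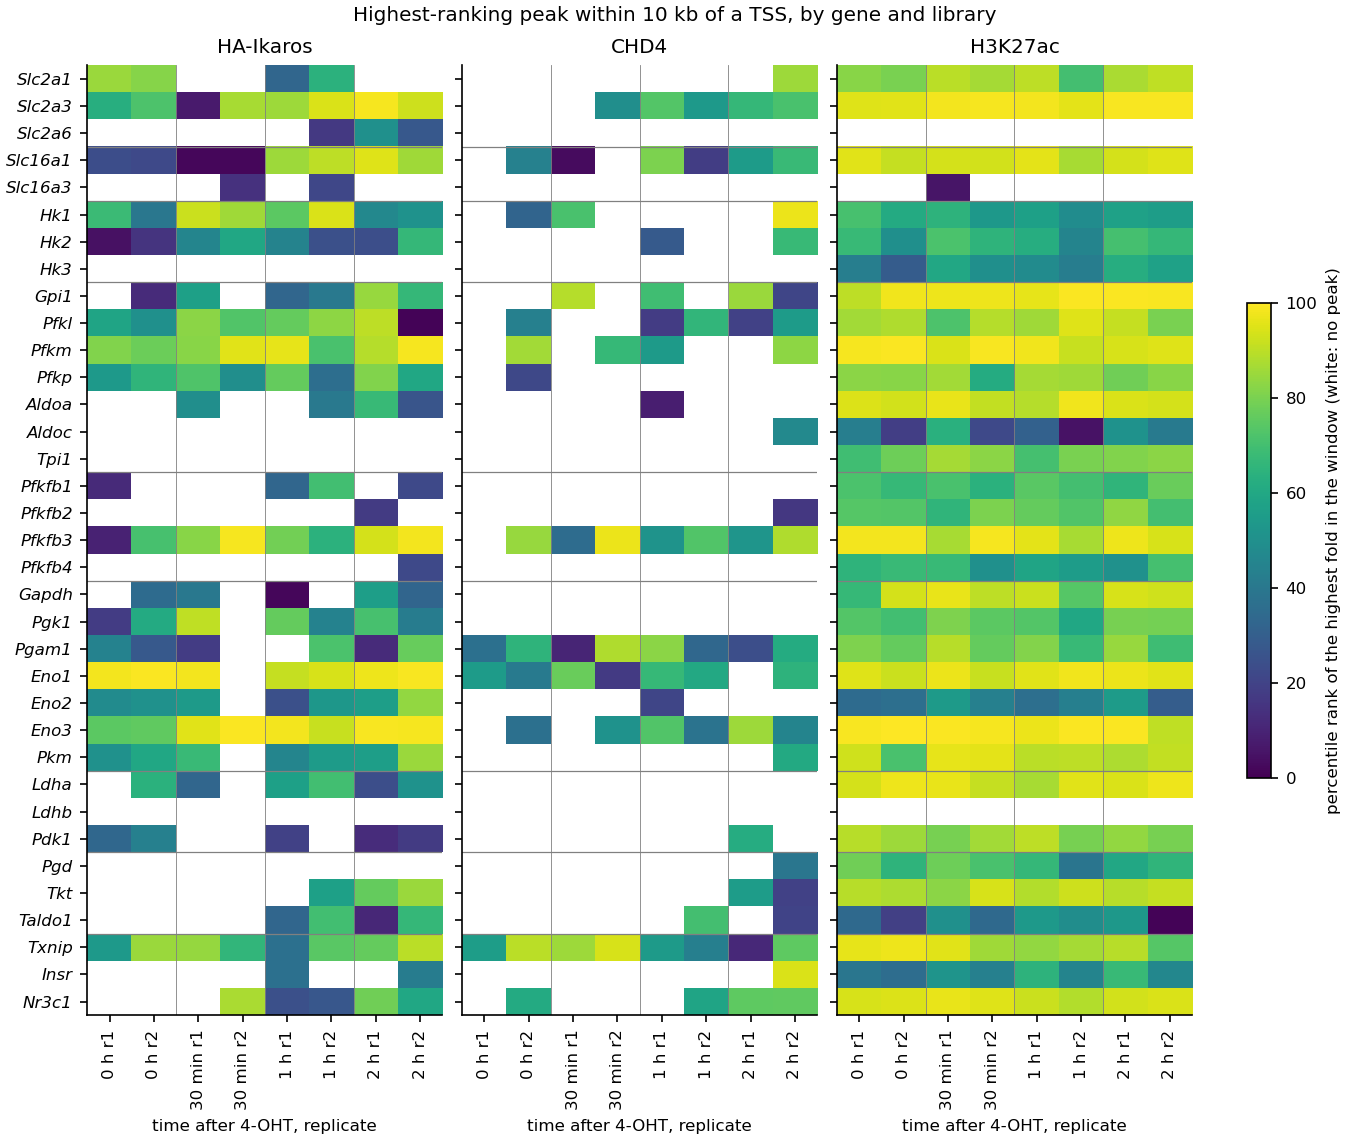
Percentile rank (colour, 0 to 100; white, no peak) of the highest-ranking peak within 10 kb of a TSS for each of the 35 genes (rows, grouped by role and separated by grey lines) in each of the 8 libraries (columns) of HA-Ikaros, CHD4 and H3K27ac. H3K27ac is present in all 8 libraries for 32 genes, CHD4 for 2, and HA-Ikaros for 10.

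Among the glucose transporters, Slc2a1 and Slc2a3 had HA-Ikaros differences of opposite sign, neither past the adjusted threshold. Slc2a1 encodes GLUT1, the transporter of basal glucose uptake. Its HA-Ikaros rank was 85.1 and 81.8 at 0 h, absent in both 30 min libraries, 32.9 and 64.2 at 1 h, and absent in both 2 h libraries. The 2 h minus 0 h difference was -83.5 ± 17.7 points (SE, adjusted p = 0.0756, limma), and the groups did not overlap. The 0 h peaks lay in 1 region, chr4:119118675-119119335, inside an intron of Slc2a1 near the edge of the 10 kb window, and the 1 h replicate 2 peak lay there too. The 1 h replicate 1 peak lay at another place, near the start of the gene. No HA-Ikaros peak was called within 1 kb of a Slc2a1 TSS in any 0 h or 2 h library. CHD4 was called near Slc2a1 in 2 h replicate 2 alone, at rank 85.2, on the same intronic region (chr4:119118815-119119143). H3K27ac covered that region in all 8 libraries, at ranks from 49.5 to 79.0. Leaving out either 1 h library left the Slc2a1 difference at -83.5 points. No p is given there, since only the 0 h pair of libraries then varied within a time. Over the alternatives that kept all libraries and tested Slc2a1, the adjusted p ran from 0.0303 to 0.141 (limma). The 0 h libraries had the highest coverage of their target (3.59 and 3.12, against 2.85 and 2.12 at 2 h), and the part of coverage in the difference was not tested.

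Slc2a3 encodes GLUT3, a high-affinity transporter. HA-Ikaros ranked 62.8 and 72.2 near it at 0 h, 7.05 and 86.9 at 30 min, 85.3 and 94.2 at 1 h, and 98.5 and 92.5 at 2 h. Those peaks came from a region 9237 bp upstream of its nearest TSS, for which Foxj2 is the nearest gene at 9037 bp. Both 2 h values stood above both 0 h values, by 27.9 ± 23.2 points (adjusted p = 0.488, limma). The difference was 47.4 with a window of 1 kb and 16.3 with ranks among genes. A second region, in an intron 521 bp from a TSS, was called at 1 h replicate 2 (21.3) and in both 2 h libraries (53.0 and 41.8), and in neither at 0 h. CHD4 was absent from the window in both 0 h libraries and 30 min replicate 1. It was called at 49.6 in 30 min replicate 2, at 73.1 and 53.9 at 1 h and at 66.7 and 71.1 at 2 h. The CHD4 difference was 68.9 ± 26.4 points (adjusted p = 0.383, limma), and 0 with lists of equal size. H3K27ac near Slc2a3 was among the strongest of the set, between 95.3 and 99.1 in every library.

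Slc2a6, a transporter of the lysosomal membrane, had no H3K27ac peak in any library and no CHD4 peak. HA-Ikaros nevertheless appeared there at 16.7 in 1 h replicate 2 and at 50 and 27.4 at 2 h, and in no 0 h or 30 min library. Its peaks sat within 1 kb upstream of the TSS. The difference was 38.7 ± 11.4 points (adjusted p = 0.118, limma). Without 2 h replicate 2 it was 50 points (adjusted p = 0.0451, limma), a fit in which the lone 2 h library is assumed to vary like the other times. It was 23.2 with peaks of a −log10 q of at least 3. Over the alternatives that kept all libraries and tested Slc2a6, the adjusted p ran from 0.117 to 0.241 (limma).

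Of the lactate transporters, Slc16a1 encodes MCT1, which carries lactate and pyruvate. HA-Ikaros ranked 23.5 and 22.1 near it at 0 h, 1.92 and 1.81 at 30 min, 85.3 and 90 at 1 h, and 95.3 and 85.9 at 2 h. All but the 30 min replicate 2 value came from the promoter region whose sequence is given above. Both 1 h and both 2 h libraries stood far above the 4 earlier ones, and the 2 h minus 0 h difference was 67.8 ± 17.0 points (adjusted p = 0.0902, limma, 0.0303 to 0.269 over all alternatives). It was 34.6 with ranks among genes. The fold over background of these peaks was 3.88 and 4.13 at 0 h and 7.23 and 6.76 at 2 h. CHD4 was called at 44.0 in 0 h replicate 2, 2.96 in 30 min replicate 1, 80.3 and 18 at 1 h, and 55.0 and 67.9 at 2 h, with no steady order over time. H3K27ac stayed between 86.9 and 95.9. Slc16a3, which encodes the lactate exporter MCT4, had weak HA-Ikaros peaks in 2 libraries (14.1 at 30 min replicate 2 and 21.3 at 1 h replicate 2), an H3K27ac peak of rank 5.53 in 30 min replicate 1 only, and no CHD4.

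**Figure D3:**
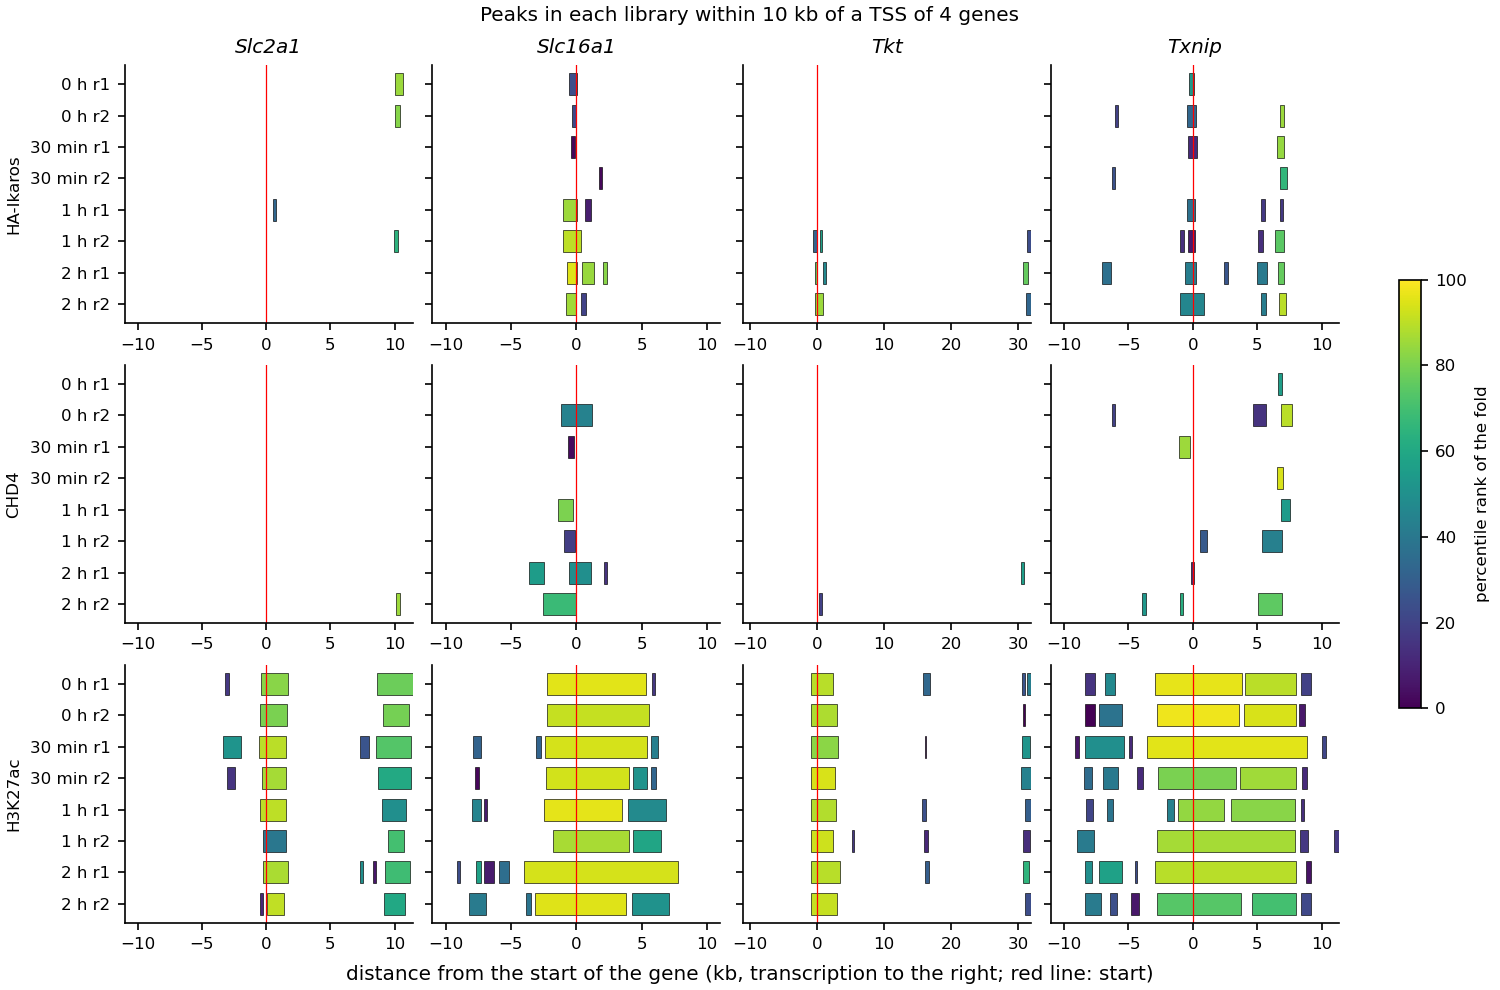
Peaks of HA-Ikaros, CHD4 and H3K27ac (rows of panels) in each of the 8 libraries (lines within a panel) around Slc2a1, Slc16a1, Tkt and Txnip, drawn to scale as the distance in kb from the annotated start of the gene (red line), with colour for the percentile rank. The downstream region of Slc2a1 has HA-Ikaros peaks at 0 h (85.1 and 81.8) and none at 2 h, and the start of Slc16a1 has ranks of 23.5 and 22.1 at 0 h and 95.3 and 85.9 at 2 h.

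Hexokinases make glucose-6-phosphate and so keep glucose in the cell. Hk2, the inducible form, was called for HA-Ikaros in all 8 libraries, always in 1 promoter region, and was the lowest ranked of the 10 members so called. Its ranks were 4.49 and 14.9 at 0 h, 45.4 and 59.7 at 30 min, 44.6 and 24.6 at 1 h, and 24.1 and 66.5 at 2 h. All 6 induced libraries lay above both 0 h libraries, while the 2 h difference was 35.6 ± 20.8 points (adjusted p = 0.372, limma). It was 14.5 or 56.8 with 1 of the 2 h libraries left out (replicate 2 or 1), and turned to -2.44 with ranks among genes. Hk1 is the widely expressed form. Its best rank was 68.1 and 39.7 at 0 h and 46.7 and 50.9 at 2 h. The promoter region alone read 2.71 and 15.6 at 0 h, 92.1 and 85.6 at 30 min, 74.9 and 94.4 at 1 h, and 46.7 and 4.71 at 2 h. That region was thus highest in the 30 min and 1 h libraries. Hk3, mostly a myeloid form, had neither HA-Ikaros nor CHD4. H3K27ac near Hk3 ranked 42.8 and 29.1 at 0 h and 62.4 and 57.4 at 2 h, a difference of 24 ± 9.08 points (adjusted p = 0.389, limma). It was 14.5 with lists of equal size and 11.2 with ranks among genes, and turned to -19.4 with a window of 1 kb. Its peaks lay 1583 bp upstream of a TSS in all 8 libraries and 2376 bp downstream in 6.

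In the upper part of glycolysis, HA-Ikaros was called in all 8 libraries near Pfkl, Pfkm and Pfkp, the 3 phosphofructokinase-1 genes. Pfkm ranked 71.3 to 98.5 with a mean of 86.4, but its strongest region lay 5 bp from the start of the neighbouring gene Senp1. Pfkp ranked 36.0 to 81.0. Pfkl ranked 50.3 to 89.9 in 7 libraries and 0.786 in 2 h replicate 2, so its replicates at 2 h stood far apart. Gpi1, glucose-6-phosphate isomerase, had no HA-Ikaros peak in 0 h replicate 1, one of 12.2 in 0 h replicate 2 and of 57 in 30 min replicate 1, and peaks of 32.9 and 40.5 at 1 h and 84.6 and 66.5 at 2 h. The difference was 69.5 ± 23.0 points (adjusted p = 0.146, limma), 10.9 with a window of 1 kb, 29.7 with lists of equal size and 46.2 with ranks among genes. The 2 h peaks lay in the upstream region shown above, which was called at 13.1 and 40.5 at 1 h and in no earlier library. CHD4 was gained near Gpi1 (84.8 and 20.8 at 2 h), in a different region in each replicate, and had been called at 88.9 in 30 min replicate 1 and 69.5 in 1 h replicate 1. Aldoa, the aldolase of most tissues, was gained for HA-Ikaros (67.3 and 26.2 at 2 h), in a region 51 bp from the start of Ppp4c. Its difference was 46.7 ± 23.5 points (adjusted p = 0.302, limma), 23.3 with a window of 1 kb, 6.78 with lists of equal size and 26.2 without 2 h replicate 1. Aldoc and Tpi1 had no HA-Ikaros, and Aldoc had the lowest mean H3K27ac rank of members called in all 8 libraries (34.4).

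The PFKFB enzymes set the level of fructose-2,6-bisphosphate, the activator of phosphofructokinase-1. Pfkfb3 had the highest mean HA-Ikaros rank of the 4. HA-Ikaros ranked 9.38 and 70.8 near it at 0 h, 82.1 and 98.7 at 30 min, 78.8 and 64.2 at 1 h, and 93.4 and 98.4 at 2 h. The 0 h replicates were far apart, and the difference was 55.8 ± 19.6 points (adjusted p = 0.162, limma). It was 25.1 without 0 h replicate 1 and 86.5 without 0 h replicate 2, 88.2 with a window of 1 kb and 30.3 with ranks among genes. CHD4 was called near Pfkfb3 in 7 libraries, at 35.3 to 97.1, and not in 0 h replicate 1. H3K27ac formed a block of peaks over the same introns and ranked 87.0 to 98.5. Pfkfb1 was called for HA-Ikaros in 4 libraries, at the start of its neighbour Apex2 and 80 bp upstream of a Pfkfb1 TSS. Pfkfb2 and Pfkfb4 were called in 1 library each, at 17.4 and 22.1.

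**Figure D4:**
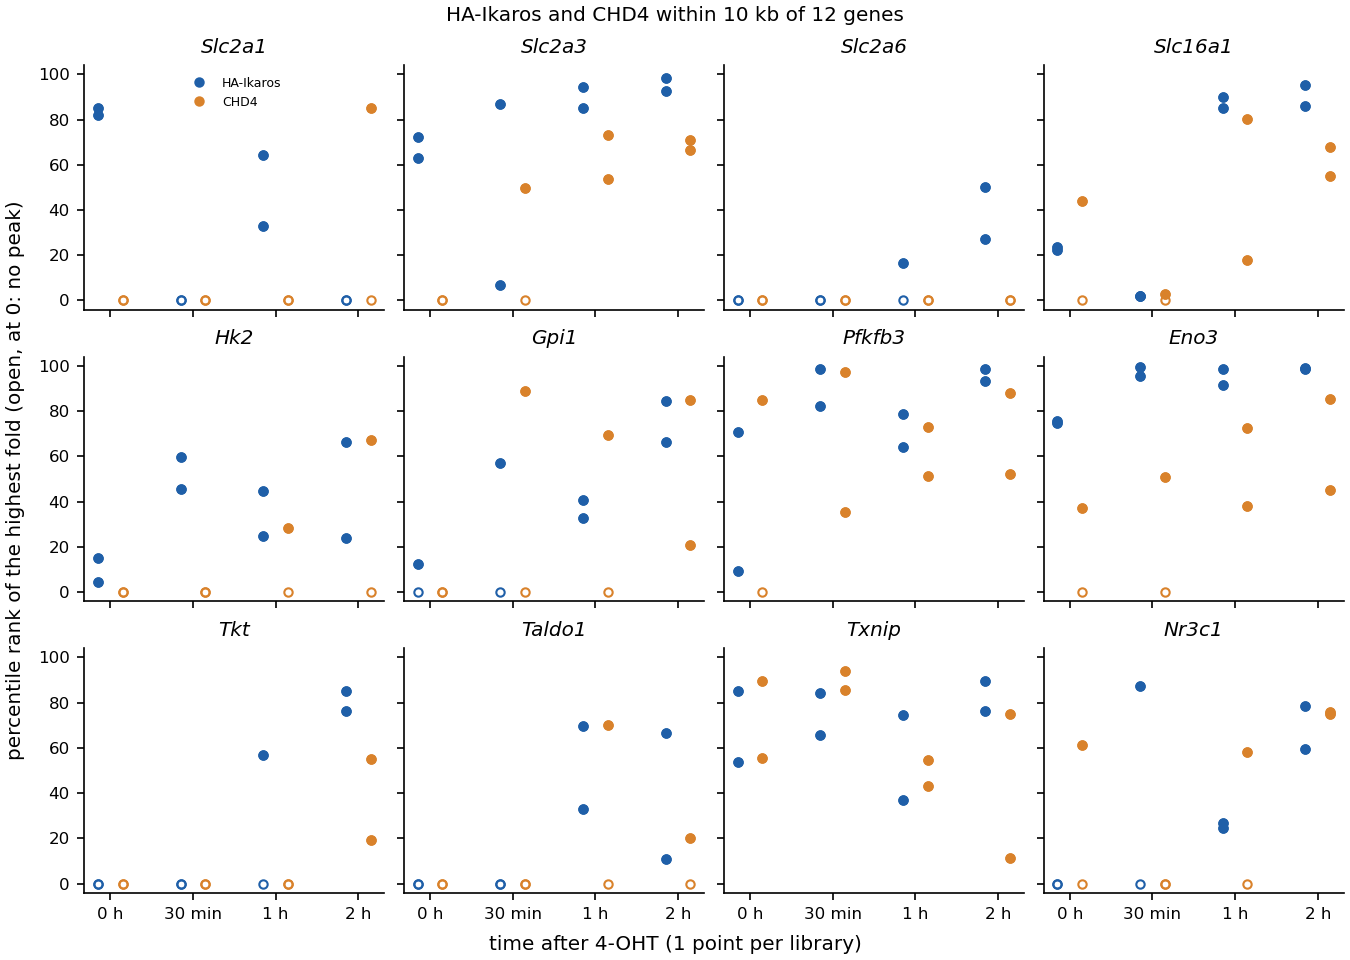
Percentile rank (y axis) of the highest-ranking HA-Ikaros (blue) and CHD4 (orange) peak within 10 kb of 12 genes by time after 4-OHT (x axis), with 1 point per library and open points at 0 for no peak. Both 2 h HA-Ikaros points stand below both 0 h points for Slc2a1, and between and above them for Txnip. For the other genes shown they stand above both. The 12 genes were picked for display, so their number is no result. Of all 9088 genes tested, 6885 had a higher mean HA-Ikaros rank at 2 h.

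In the lower part of glycolysis, Eno1 encodes the widely expressed enolase. HA-Ikaros near it ranked 98.4 and 99.3 at 0 h, 98.2 in 30 min replicate 1, 91.4 and 93.9 at 1 h, and 97.6 and 99.2 at 2 h, at its own promoter. It had no peak in 30 min replicate 2. Its 2 h difference was -0.455 ± 26.4 points (adjusted p = 1, limma). The fold of these peaks was 14.0 and 19.2 at 0 h and 7.94 and 11.8 at 2 h, lower in both replicates while the ranks overlapped. The median fold of the whole HA-Ikaros lists was 4.74 and 5.2 at 0 h and 4.2 and 4.8 at 2 h. Ranks near the top of a list show little of a change in fold. Eno3, the muscle enolase, had the highest mean rank of all members (91.6). It ranked 74.7 and 75.5 at 0 h and 99.2 and 98.5 at 2 h, a difference of 23.8 ± 5.36 points (adjusted p = 0.0793, limma). Without 1 h replicate 2 the adjusted p of Eno3 was 0.0486 (limma), in a range of 0.0486 to 0.663 over all alternatives. It was 37.1 with lists of equal size. The 2 h peak was nearest to the start of Rnf167 in replicate 1 and of Slc25a11 in replicate 2, and other strong regions in the window lay at Pfn1 and Spag7. Starts of 4 other genes fall in the Eno3 window, so these values cannot be assigned to Eno3. Eno2, the neuronal enolase, shared its window with Atn1, and its best HA-Ikaros rank was 48.4 and 50.7 at 0 h and 56.2 and 83.8 at 2 h. A region 5936 bp downstream of the nearest Eno2 TSS was called in both 0 h libraries (48.4 and 25.2) and neither 2 h library.

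Pkm encodes pyruvate kinase of most dividing cells. Its best HA-Ikaros rank was 50.6 and 59.6 at 0 h and 56.2 and 85.0 at 2 h, from different places. A region 2894 bp upstream held the 0 h peaks and none at 2 h, and the promoter region held both 2 h peaks and 1 of the 0 h peaks (46.4 in replicate 1). Gapdh was called in 5 libraries, among them 0 h replicate 2 (34.9) and both at 2 h (56.2 and 32.8). Pgk1 ranked 17.7 and 61.0 at 0 h and 71.0 and 41.8 at 2 h. Pgam1 ranked 44.4 and 28.1 at 0 h and 12.2 and 76.8 at 2 h, from a region nearer to Rrp12. For these 3 genes the groups overlapped. CHD4 was called in all 8 libraries near 2 members alone, Pgam1 (10.4 to 88.2) and Txnip (11.4 to 94.0). It was called at the Eno1 promoter in 7, with none in 2 h replicate 1.

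Of the genes that divide pyruvate between lactate and the mitochondrion, Ldha was called for HA-Ikaros in 6 libraries, at 63.8 in 0 h replicate 2 and at 24.1 and 50.9 at 2 h. Pdk1, a kinase that shuts pyruvate dehydrogenase, was the other member besides Slc2a1 with both 2 h ranks under both 0 h ranks. It ranked 33.3 and 43.5 at 0 h and 12.7 and 17.3 at 2 h, a difference of -23.4 ± 11.7 points (adjusted p = 0.299, limma), and -37.3 with ranks among genes. The 0 h peaks lay in different regions, 5513 bp upstream in replicate 1 and 3068 bp downstream in replicate 2, and both 2 h peaks in the upstream one. Ldhb had no peak of any target in any library.

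The pentose phosphate pathway branches off at glucose-6-phosphate. Tkt, transketolase, had no HA-Ikaros peak in the 5 libraries from 0 h to 1 h replicate 1. It was called at 56.9 in 1 h replicate 2 and at 76.4 and 85.0 at 2 h. The difference was 80.7 ± 20.5 points (adjusted p = 0.0922, limma). Leaving out either 1 h library left the difference at 80.7 points. No p is given there, since only the 2 h pair of libraries then varied within a time. Over the alternatives that kept all libraries and tested Tkt, the adjusted p ran from 0.07 to 0.141 (limma). The difference was 49 points with lists of equal size. Regions at the promoter and 9780 bp downstream of the nearest TSS were both called in those 3 libraries. CHD4 was gained near Tkt too (55.1 and 19.4 at 2 h, none in the other 6 libraries), at the downstream region in replicate 1 and at the promoter in replicate 2. That difference was 37.2 ± 12.7 points (adjusted p = 0.308, limma). The call ended with a window of 1 kb, with protein-coding TSSs only, at a fold of at least 3, at a −log10 q of at least 3 and with lists of equal size. With 2 h replicate 1 or 2 h replicate 2 left out, 19.4 or 55.1 points remained, and no p is given since the 6 other libraries were all at 0 and left no spread. In the other alternatives the adjusted p of limma ran from 0.355 to 0.582. With a window of 20 kb the difference was 66.5 points. H3K27ac near Tkt ranked 82.6 to 93.8 throughout. Taldo1, transaldolase, was gained for HA-Ikaros at its promoter, at 32.9 and 69.9 at 1 h and 11 and 66.5 at 2 h (difference 38.7 ± 21.4, adjusted p = 0.345, limma). The difference was 66.5 without 2 h replicate 1 and 11 without 2 h replicate 2. Its H3K27ac was weak, from 1.01 to 54.1. Pgd had no HA-Ikaros and a CHD4 peak in 1 library, 2 h replicate 2 (39.4).

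Txnip encodes a protein that lowers glucose uptake. HA-Ikaros was called near it in all 8 libraries, at 53.9 and 85.1 at 0 h, 84.1 and 65.7 at 30 min, 36.8 and 74.5 at 1 h, and 76.4 and 89.6 at 2 h. In 7 of the 8 the region 4802 bp downstream of the nearest TSS was bound, and in 7 the promoter was. Another region, 3409 bp downstream, was called in both 1 h and both 2 h libraries (16.6, 13.4, 40.7 and 41.8) and in none before. H3K27ac near Txnip ranked 96.3 and 97.3 at 0 h, 95.5 and 85.9 at 30 min, 83.8 and 86.5 at 1 h, and 89.1 and 73.8 at 2 h. Both 2 h values lay under both 0 h values, with a difference of -15.4 ± 5.44 points (adjusted p = 0.361, limma). It was -7.75 without 2 h replicate 2 and -36.5 with ranks among genes. The fold of these peaks was 31.0 and 28.7 at 0 h and 13.1 and 9.14 at 2 h, while the median fold of the whole lists was 7.5 and 7.71 at 0 h and 4.36 and 5.19 at 2 h.

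Insr encodes the insulin receptor. HA-Ikaros was called near it in 1 h replicate 1 (36.8) and 2 h replicate 2 (41.8), and CHD4 in 2 h replicate 2 (94.2). H3K27ac near Insr ranked 39.4 and 35.8 at 0 h and 67.5 and 46.4 at 2 h, a difference of 19.3 ± 10.7 points (adjusted p = 0.487, limma). It was 8.74 or 29.8 with 2 h replicate 1 or 2 left out, 10.1 with a window of 1 kb, 10.6 with lists of equal size and 8.92 with ranks among genes. An H3K27ac region over a coding exon, 2090 bp from the nearest TSS, was called in all 6 induced libraries and neither 0 h library. Nr3c1 encodes the glucocorticoid receptor, and was gained for HA-Ikaros at a promoter. Its ranks were absent at 0 h and in 30 min replicate 1, 87.3 in 30 min replicate 2, 24.5 and 27 at 1 h, and 78.4 and 59.4 at 2 h. The difference was 68.9 ± 28.3 points (adjusted p = 0.215, limma). It was 21.4 with lists of equal size and turned to -0.875 with a window of 20 kb. The 30 min peak lay in an intron more than 10 kb away from the promoter region called later. CHD4 near Nr3c1 was absent and 61.3 at 0 h, absent at 30 min, absent and 58.4 at 1 h, and 75.0 and 75.7 at 2 h.

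**Figure D5:**
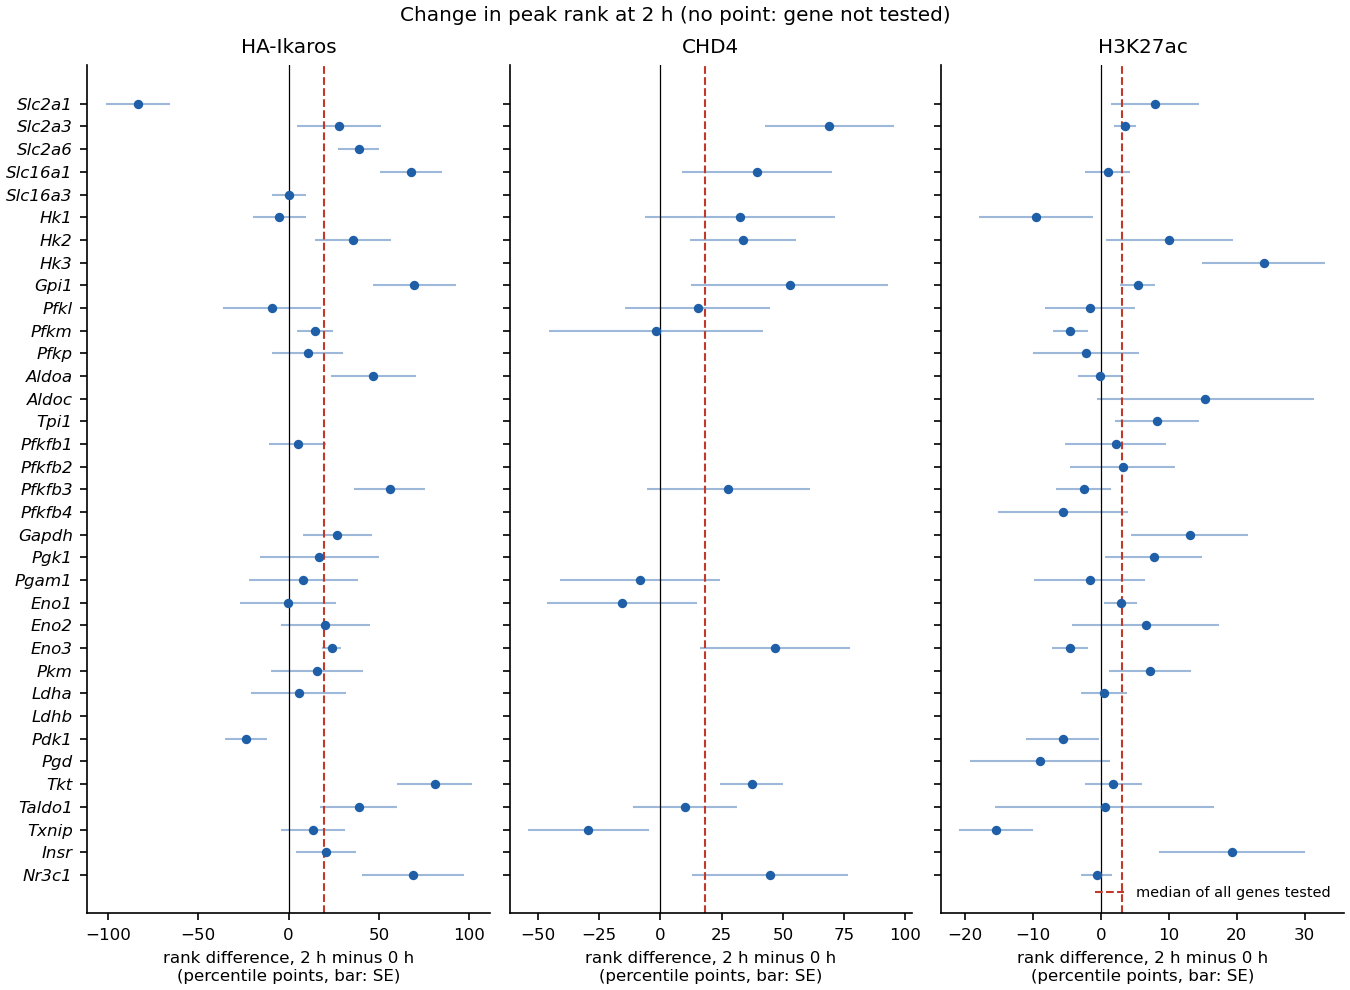
Difference in peak rank between 2 h and 0 h in percentile points (x axis, points, with bars for the standard error from limma over 8 libraries) for each tested member (rows), with the median of all genes tested as a dashed line. Slc2a1 lies at -83.5 for HA-Ikaros where the median is 19.57, and the H3K27ac differences stay between -15.4 and 24. No difference shown passed an adjusted p of 0.05.

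CHD4 peaks lay near 3 and 11 members at 0 h, 7 and 7 at 30 min, 13 and 10 at 1 h, and 11 and 21 at 2 h. The list of 2 h replicate 2 was the longest and that of 0 h replicate 1 the shortest. Both 0 h libraries called 3 members (10.3% of the 29, against 10.2% of the comparison genes), and both 2 h libraries called 10 (34.5%, against 22.1%), all among the 29. The strength of promoter H3K27ac was not matched here either. The gained members were Slc2a3, Gpi1 and Tkt (10.3%, against 6.34%), and none was lost (0%, against 0.516%). From 1 replicate alone, 9 (replicate 1) or 11 (replicate 2) members were gained and 1 was lost (Eno1 or Pfkp), and with lists of equal size 1 was lost (Txnip). CHD4 was never called near 10 members, 6 of them among the 29 (20.7%, against 36.7%), namely Slc2a6, Slc16a3, Hk3, Pfkfb1, Pfkfb4, Tpi1, Gapdh, Pgk1, Ldha and Ldhb. By limma, 0 of 5001 genes passed the adjusted threshold (0%), and 9.54% were higher and 1.42% lower at an unadjusted p under 0.05. Of the 15 members tested, Slc2a3 and Tkt were higher at that level and none was lower. The median difference was 32.38 points for the 15 members and 18.31 for all genes, and 0 for both without 2 h replicate 2. Without 0 h replicate 1 it was 14.01 and 10.86, and without 0 h replicate 2 41.46 and 28.29. Of the CHD4 genes at an unadjusted p under 0.05, 87.0% were higher, 55.1% without 0 h replicate 1 and 49.6% with lists of equal size. With lists of equal size, or at a −log10 q of at least 3, no member was gained. Gpi1 was no longer gained with a window of 1 kb or at a fold of at least 3.

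H3K27ac was nearly constant in presence. A peak lay near 32 members in 7 of the libraries and near 33 in 30 min replicate 1, and no member was gained or lost (a comparison gene cannot be gained, since all carry the mark at 0 h). Of the comparison genes 0.970% were lost, beside 0 of the 29 members that met the same condition. Slc2a6 and Ldhb had no peak in any library. The highest mean ranks were those of Eno3 (98.0), Slc2a3 (97.4) and Gpi1 (97.0), and the lowest among members called in all 8 libraries those of Aldoc (34.4), Taldo1 (36.9) and Eno2 (41.7). By limma, 1 of 11720 genes passed the adjusted threshold (0.00853%), and it was no member. With a window of 20 kb 0 genes passed, and with ranks among genes 14, again no member. In the fit as reported, 9.25% were higher and 2.83% lower at an unadjusted p under 0.05. Among the 32 members tested, Hk3 was higher and Txnip lower at that level. The median difference was 1.39 points for members and 3.09 for all genes. It was -2.21 and -0.04 when ranks were taken among genes, -0.14 and 1.45 without 0 h replicate 2, 1.89 and 1.65 without 2 h replicate 1, and 3.61 and 5.28 without 2 h replicate 2. Of the H3K27ac genes at an unadjusted p under 0.05, 76.6% were higher, 44.8% with ranks among genes, 43.1% without 2 h replicate 1 and 37.8% with lists of equal size.

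Counted by region instead of by gene, with peaks of the 8 lists merged where they overlapped, the windows of the 35 genes held 79 HA-Ikaros, 49 CHD4 and 108 H3K27ac regions. For HA-Ikaros 9 regions were gained (11.4%) and 3 lost (3.80%), against 13.0% and 2.21% of 14144 regions in the windows of the comparison genes. The lost ones were those of Slc2a1, Pkm and Eno2 named above. For CHD4 4 regions were gained (8.16%) and none lost, against 6.32% and 1.16%. They lay near Slc2a3 (both of its regions), Nr3c1 and, at the start of Spag7, Eno3. Around the 29 members with promoter acetylation, 3 of 100 H3K27ac regions were gained (3%) and 1 lost (1%), against 2.95% and 1.65%. The HA-Ikaros and CHD4 shares include the windows of the 6 members without that mark.

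H3K27ac at 0 h chose the comparison genes and 29 of the members, so the overlap of HA-Ikaros with it is largely set by that choice and is given as a description. The best 2 h peak overlapped an H3K27ac peak of both 0 h libraries for 24 of 25 members in replicate 1 and 26 of 27 in replicate 2 (96.0% and 96.3%), and for 94.1% and 94.7% of the comparison genes so called. The exception was Slc2a6. CHD4 of the same replicate number overlapped the best peak for 4 of 25 and 15 of 27 members (16.0% and 55.6%), against 26.1% and 46.0%. The CHD4 list of replicate 2 was the longer one, at 9593 peaks against 5523, so the 2 shares were not taken under the same conditions. In each 2 h library, 17 of the best peaks lay within 1 kb of a TSS of the member and 7 lay nearer to the start of another gene.

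The other genes of glucose metabolism, a list of 54 that includes further transporters, isoenzymes, pyruvate dehydrogenase subunits and insulin signalling genes, were counted in the same way. For HA-Ikaros 26 were tested, 7 were higher and 1 lower at an unadjusted p under 0.05, 7 were gained and 1 lost, and 25 were never called. These are 26.9% and 3.85% of those tested, against 18.5% and 3.03% of all genes tested, and 13.0%, 1.85% and 46.3% of the list, against 7.16%, 0.842% and 51.7% of all 21728 genes. Neither side was chosen on H3K27ac here, and of the comparison genes used above 13.5% were gained. The median difference of the list was 29.32 points, against 19.57 over all genes tested. For CHD4 11 were tested, and none was higher, lower, gained or lost by these rules, against 9.54%, 1.42%, 3.12% and 0.313% of all genes. For H3K27ac 33 were tested, of which 3 were higher (9.09%, against 9.25%) and 1 lower (3.03%, against 2.83%), with none gained or lost (against 0.221% and 0.893%) and a median of 4.43 points, against 3.09. No gene of the list passed the adjusted threshold for any target.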

How the data were processed

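Per the labels and the study's methods, the authors crosslinked B3 cells with DSG and formaldehyde, precipitated HA, CHD4 or H3K27ac, aligned reads to mm10 with Bowtie2 2.4.2, marked duplicates with Picard 2.23.7 and called peaks per library with MACS2 2.2.7.1, broad for CHD4 and narrow otherwise. Settings for the 30 min libraries are not given in the sources used here. The deposited lists give each peak a score, a fold over background, a −log10 p and a −log10 q, and the authors' narrow lists a summit position. Only fold, −log10 q, positions and summits were used. Replicates were compared as separate lists.

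Peaks overlapping by at least 1 bp a window of 10 kb around any TSS were assigned to genes. Genes with a peak in at least 2 of 8 libraries were fitted with limma 3.58.1 in R 4.3.3 (time as factor, trended variance, all 8 libraries, no replicate block, Benjamini-Hochberg, two-sided). The fit was also run on simulated data with known changes, and the outcome is not reported here. Coverage was recovered from the steps of the fold values. Gained, lost and never-called genes are descriptions without a test. Lists hold called peaks only, so an absent peak is not an absence of binding. Alternatives were other windows, thresholds, list lengths, scales, filters and left-out libraries.

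The members and lists were chosen with earlier results of these data known. Named by rule were members gained or lost, the 3 highest and 3 lowest mean ranks per target among those called in all 8 libraries, those never called, and Slc2a1, Slc2a3, Slc2a6, Hk2, Hk3, Txnip, Insr and Nr3c1. Other members were given values after these were seen. Inputs were not analysed here.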

Additional observations from a re-analysis of the deposited data

How the results depend on the processing

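Of 363 recomputed differences of single members, 348 kept direction and side of the adjusted threshold, though not always size. Another 10 passed it anew, 2 of them Tkt for CHD4 with 1 of the 2 h libraries left out. There the other libraries have no spread and the test is void. Slc2a1 and Tkt for HA-Ikaros also passed with a 1 h library left out, where only 1 pair of libraries varied. Those passes carry no weight either. Lastly, 1 became 0 (Slc2a3 for CHD4 with lists of equal size) and 4 turned direction. These were Nr3c1 for HA-Ikaros with a window of 20 kb (-0.875), Hk2 for HA-Ikaros with ranks among genes (-2.44), Eno1 for HA-Ikaros without 2 h replicate 1 (0.333, in a range of -1.24 to 0.333 over left-out libraries) and Hk3 for H3K27ac with a window of 1 kb (-19.4). The cause was not tested. For HA-Ikaros, where 0 genes passed the adjusted threshold of limma, 84 did with ranks among genes, 40 on the log2 fold and 416 without the variance trend, 2 of these being members (Slc16a1 and Slc2a1). Leaving out 1 library gave 0 to 459 genes and 0 to 3 members. For CHD4 it gave 0 to 428 genes and 0 to 1 members, and for H3K27ac 0 to 32 genes and 0 members. For H3K27ac, 4 genes passed with a window of 1 kb, 0 with 20 kb, 0 with coding TSSs, 2 with lists of equal size, 14 with ranks among genes, 5 on the log2 fold, 0 among genes called in all 8 libraries and 5 without the trend. Members gained for HA-Ikaros numbered 3 with 20 kb, 2 with equal lists and 8 to 9 with 1 replicate, and members lost 0 with 1 kb, 2 with equal lists and 1 to 2 with 1 replicate. For CHD4, 0 were gained at a −log10 q of at least 3 (where no member could be tested), 1 at a fold of at least 3, 0 with equal lists and 9 to 11 with 1 replicate. Members lost for CHD4 were 1 with equal lists and 1 with 1 replicate. The replicate block gave 0, 0 and 1 genes called for HA-Ikaros, CHD4 and H3K27ac, and 0 members. Same-numbered libraries deviated together weakly (correlations 0.0071 to 0.124) and the labels name no shared batch, so the numbers were not taken as pairs. Depth is unknown for CHD4, and 2 libraries per time limit every test.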
